A study of Mus musculus with 8 samples.

Results

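Of the 1091 probe sets for olfactory receptors (*Olfr* genes) on the Mouse Clariom S array, 82 had a mean signal of at least 8 on the log2 scale over the 8 arrays of annulus fibrosus (AF) RNA, or 7.52%. These 82 bright receptors, each a gene of its own with 1 probe set, were chosen on that mean, so that their level is a description of the choice. The whole comparison held 22206 probe sets. AF was dissected from the lumbar discs of 4 *Abcc6* KO mice (mice 6, 7, 8 and 9) and 4 WT mice (mice 1, 2, 3 and 5), all female C57BL6J mice aged 7 months. The KO mice lacked ABCC6 in every tissue, and the discs of each mouse were pooled onto 1 array. The methods of the study do not give the origin of the WT mice. Signal is given in log2 units throughout, and a fold change is the KO minus WT difference of log2 values. The brightness of a probe set depends on its probes, so that it does not rank the amount of one transcript against another.

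Olfactory receptors are G protein-coupled receptors that bind odorants in the cilia of olfactory sensory neurons of the nose, where each mature neuron typically uses a single receptor gene. Binding activates a G protein whose alpha subunit is encoded by *Gnal*, then adenylyl cyclase 3 (*Adcy3*), a cyclic nucleotide-gated channel (*Cnga2*) and the chloride channel *Ano2*. The genes form one of the largest families of the mouse genome, lie in clusters of tandem copies, and have their coding sequence in a single exon. Near-identical copies can share signal on an array. The odorants bound by the receptors named here are left out.

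Of 10 AF markers, 6 exceeded the array's negative control median on all 8 arrays. *Scx* did so on 0 arrays, *Mkx* on 1, *Tnmd* on 4 and *Col2a1* on 7. The brightest of the 10 was *Chad*, at 19.51, 16.77, 18.37 and 17.91 log2 in KO mice 6, 7, 8 and 9. It read 18.76, 18.51, 19.77 and 17.82 log2 in WT mice 1, 2, 3 and 5. The mean of the 6 markers of olfactory sensory neurons exceeded the negative control median in WT mouse 1 alone (5.78 against 5.43 log2). None of the 6 markers had a mean of 8 or more. Below the negative control median on every array lay 4 of them, and only 1 (*Adcy3*) lay above it on every array. Their mean ran from 4.69 to 5.48 log2 in KO mice and from 4.93 to 5.78 log2 in WT mice. *Omp*, which encodes the olfactory marker protein of mature sensory neurons, read 4.41, 4.29, 4.03 and 4.58 log2 in KO mice against 4.21, 3.97, 4.12 and 4.73 log2 in WT mice. *Cnga2* read 4.62, 4.88, 4.70 and 4.93 log2 in KO mice against 4.69, 4.86, 4.41 and 4.80 log2 in WT mice. Both genes stayed under the negative control median of every array. *Gnal* stood apart in WT mouse 1, at 9.67 log2, and read 6.71, 4.19, 3.92 and 4.15 log2 in KO mice and 4.15, 4.61 and 4.32 log2 in the other WT mice. *Abcc6* itself exceeded the negative control median on 1 array (6.17, 5.64, 5.01 and 5.56 log2 in KO mice against 5.15, 5.25, 5.23 and 4.97 log2 in WT mice), so that its probe set did not check the genotype.

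The threshold of 8 was also met by probe sets that are not meant to report a transcript. Of the 5222 negative control probe sets of the array, 13.5% had a mean of 8 or more, against 7.52% of olfactory receptors, 27.1% of all named probe sets and 64.4% of the 1324 positive control probe sets. Among other chemosensory families, 53 of 323 vomeronasal receptors (16.4%), 1 of 15 trace amine receptors and 2 of 38 taste receptors reached it. Receptors on either side of the threshold had nearly the same mean. Just inside lay *Olfr1154* (8.01 log2), *Olfr1066* (8.08 log2) and *Olfr44* (8.10 log2), and just outside *Olfr1282* (7.96 log2), *Olfr146* (7.96 log2) and *Olfr205* (7.95 log2). The mean over KO mice was 8 or more for all 82 receptors, and that over WT mice for 55 of them. The other 27 therefore entered through their KO values, and a KO value above the WT value was built into their choice.

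All 82 bright receptors exceeded the negative control median of all 8 arrays, the closest being *Olfr1110* in WT mouse 1, at 5.51 log2 against a median of 5.43 log2. Their mean signal was 10.22, 10.40, 8.13 and 10.36 log2 in KO mice 6, 7, 8 and 9, against 8.19, 9.46, 8.12 and 8.56 log2 in WT mice 1, 2, 3 and 5. It averaged 9.77 ± 1.10 log2 in KO mice and 8.58 ± 0.62 log2 in WT mice (SD, n = 4 each). The genotypes overlapped, since KO mouse 8 lay with the lowest WT mice and WT mouse 2 lay between KO mouse 8 and the other KO mice. KO mouse 6 exceeded every WT mouse in 64 of the 82 receptors, KO mouse 7 in 68 and KO mouse 9 in 72, while KO mouse 8 did so in 1. KO mouse 8 was the lowest KO mouse for 81 receptors and lay below every WT mouse for 28. WT mouse 2 exceeded the other WT mice for 67 receptors. The same counts over all probe sets were not made, so that no background stands beside them. For the 27 receptors that entered through their KO values, KO mice above WT mice were favoured by the choice.

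**Figure D1:**
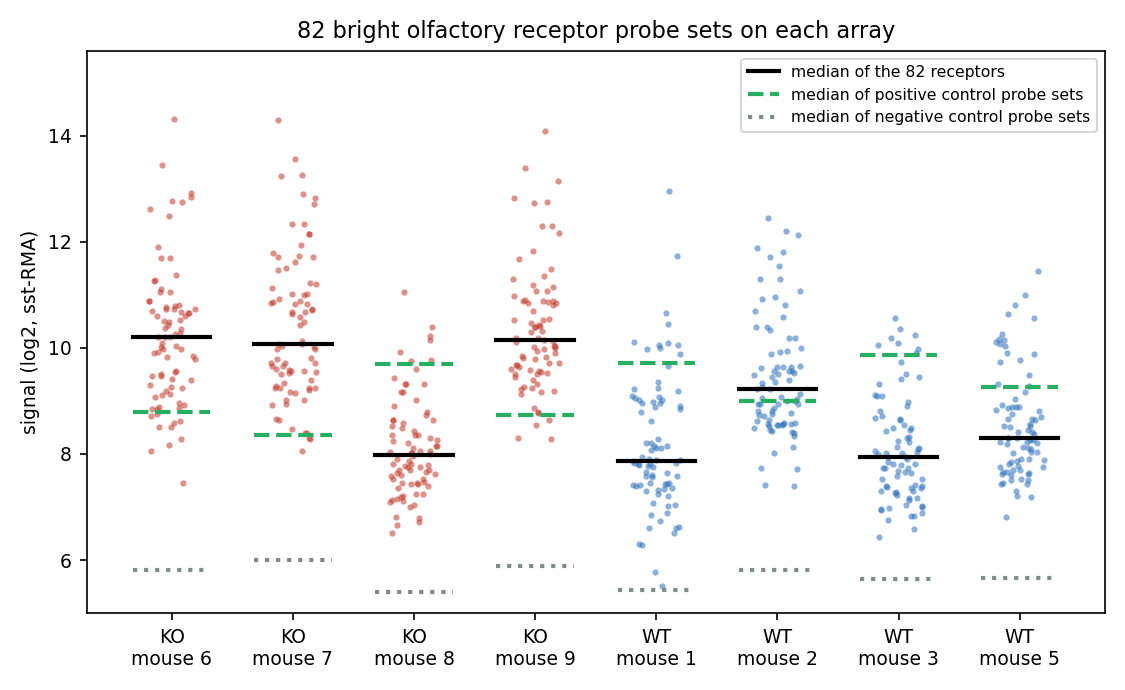
Signal (log2) of the 82 bright receptors on each array, with 1 point a receptor, KO mice in red on the left and WT mice in blue on the right. Bars mark the median of the receptors (black) and of the positive (green, dashed) and negative (grey, dotted) control probe sets, and the receptors' median lies above the positive control median in KO mice 6, 7 and 9 and WT mouse 2.

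Against the positive control probe sets the same mice stood apart. The number of bright receptors above the positive control median was 72, 79, 7 and 78 in KO mice 6, 7, 8 and 9, and 11, 46, 8 and 18 in WT mice 1, 2, 3 and 5. The positive control median moved the other way from the receptors. It was 8.80, 8.36, 9.70 and 8.73 log2 in KO mice and 9.71, 8.99, 9.86 and 9.27 log2 in WT mice.

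Every one of the 82 receptors had a fitted KO minus WT difference above 0, running from 0.05 to 2.41 with a median of 1.12 on the log2 scale. For the 27 that entered through their KO values this sign was fixed by the choice, which also raised the median. Over all probe sets tested the median difference was 0.03 and 52.4% lay above 0. The other 1009 olfactory receptors had a median of 0.38 and 87.2% above 0. Other named probe sets of the same brightness went the other way, with a median of −0.26 and 28.1% above 0. The negative control probe sets with a mean of 8 or more had a median of 0.43 with 73.2% above 0, and the bright vomeronasal receptors a median of 0.67 with 98.1% above 0. Within the olfactory family the difference was larger in brighter classes, which were defined after the values were seen. Its median was 0.26 for receptors with a mean under 5 log2, 0.37 from 5 to 6, 0.49 from 6 to 7, 0.60 from 7 to 8, 0.96 from 8 to 9, 1.31 from 9 to 10 and 1.12 above that.

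**Figure D2:**
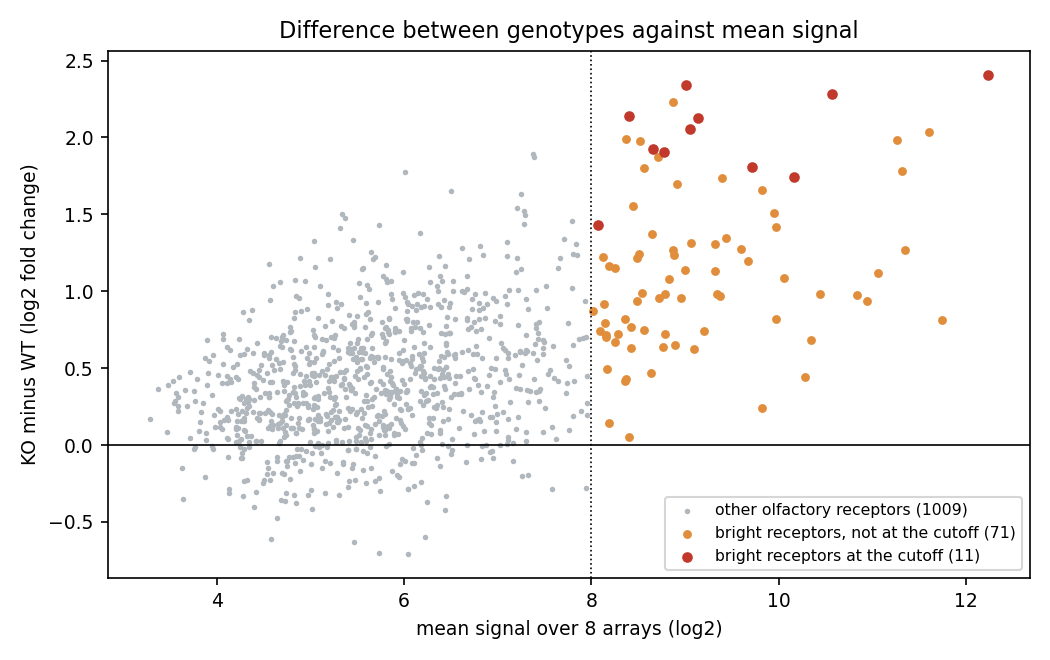
KO minus WT difference (log2 fold change) against mean signal over the 8 arrays (log2) for the 1091 olfactory receptors, 1 point a receptor. The dotted line marks the threshold of 8, and all 82 receptors to its right lie above 0. For 27 of them only the KO mean was 8 or more, which fixed this sign.

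At the cutoff of the study (unadjusted p of at most 0.01 and a fold change of at least 1.75), 11 of the 82 receptors were higher in KO mice (13.4%) and 0 were lower. Of all probe sets tested 0.428% were higher and 0.297% were lower, and of the other olfactory receptors 16 (1.59%) were higher and 0 were lower. Of the 11, 6 had a mean of 8 or more in both genotypes and 5 only in KO mice. No receptor passed after adjustment over all probe sets with limma, where the smallest adjusted p was 0.848. The same held for the whole array, with 0 of 22206 probe sets at an adjusted p under 0.05. At an unadjusted p under 0.05, 27 bright receptors were higher in KO mice (32.9%), against 2.82% of all probe sets, and 0 were lower, against 2.46%. Some of them, such as *Olfr498* (WT mean 7.75 log2) and *Olfr902* (WT mean 7.78 log2), reached the threshold of 8 only through their KO values. That share is therefore in part built into the choice of the receptors. The genotypes separated completely in 1 of the 82 receptors (1.22%), where every KO mouse exceeded every WT mouse, while 1.55% of all probe sets did so.

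The receptor without overlap was *Olfr1066*, whose WT mean of 7.36 log2 lay under the threshold of 8, so that it entered only through its KO values. It read 9.91, 8.06, 8.03 and 9.16 log2 in KO mice 6, 7, 8 and 9 against 7.21, 7.40, 7.30 and 7.53 log2 in WT mice 1, 2, 3 and 5. The WT mice were tightly grouped, and KO mice 7 and 8 lay just above them. The log2 fold change was 1.43 (standard error 0.42, limma adjusted p = 0.848).

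*Olfr772* and its neighbour *Olfr773* had the largest differences of the brightest receptors. *Olfr772*, the brightest of all, read 14.32, 14.29, 11.05 and 14.09 log2 in KO mice against 11.73, 12.13, 10.10 and 10.17 log2 in WT mice, with a difference of 2.41 (standard error 0.76). *Olfr773* read 12.48, 12.34, 9.76 and 12.29 log2 in KO mice against 10.45, 10.39, 8.66 and 8.23 log2 in WT mice, with a difference of 2.28 (standard error 0.70). In both, KO mice 6, 7 and 9 lay above all WT mice and KO mouse 8 lay inside the WT range. *Olfr1095* read 10.74, 10.43, 8.64 and 10.91 log2 in KO mice against 6.29, 9.03, 7.30 and 8.75 log2 in WT mice, with a difference of 2.34 (standard error 0.67). WT mouse 1 had the lowest value of this receptor.

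The other receptors at the cutoff showed a similar order of the mice. *Olfr1166* read 10.51, 10.13, 7.86 and 9.39 log2 in KO mice against 6.60, 8.72, 6.58 and 7.43 log2 in WT mice (log2 fold change 2.14). *Olfr1314* read 10.74, 10.93, 8.05 and 11.08 log2 in KO mice against 8.63, 8.56, 7.36 and 7.75 log2 in WT mice (log2 fold change 2.13). *Olfr305* read 10.65, 10.71, 8.65 and 10.30 log2 in KO mice against 6.74, 9.14, 7.94 and 8.27 log2 in WT mice (log2 fold change 2.05). In these 3 receptors KO mouse 8 was again the only KO mouse within the WT range. *Olfr866* read 10.21, 9.98, 7.80 and 10.52 log2 in KO mice against 7.59, 8.81, 6.75 and 7.65 log2 in WT mice (log2 fold change 1.92). *Olfr1484* read 10.65, 9.17, 8.21 and 10.87 log2 in KO mice against 8.12, 8.54, 7.00 and 7.62 log2 in WT mice (log2 fold change 1.91). *Olfr1239* read 11.11, 11.01, 9.31 and 11.07 log2 in KO mice against 9.18, 9.95, 8.10 and 8.04 log2 in WT mice (log2 fold change 1.81). WT mouse 2 was the highest WT mouse in all 3. *Olfr1168* read 11.69, 11.71, 9.60 and 11.14 log2 in KO mice against 10.05, 9.63, 8.46 and 9.04 log2 in WT mice, with a difference of 1.74 (standard error 0.51). Here KO mouse 8 lay below WT mice 1 and 2.

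**Figure D3:**
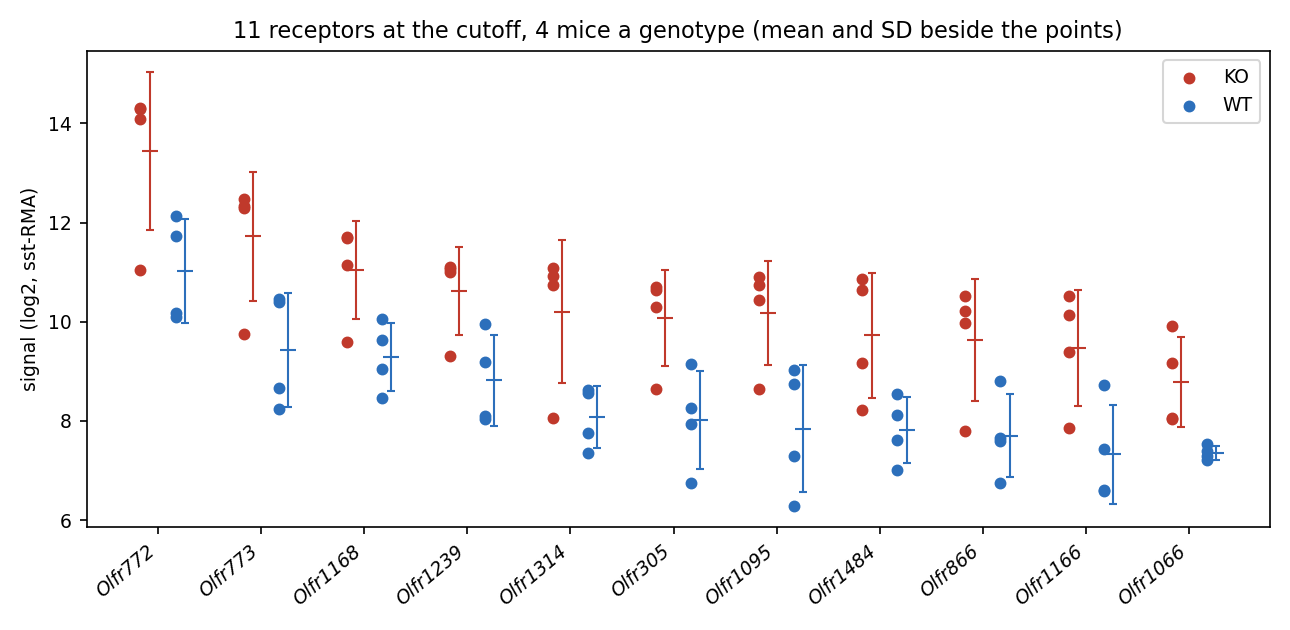
Signal (log2) of the 11 receptors at the cutoff, ordered by mean signal, with 1 point a mouse (KO in red at left, WT in blue at right of each pair) and the mean ± SD of 4 mice beside the points. KO mouse 8 is the lowest KO point of every receptor, and only *Olfr1066* shows no overlap between genotypes.

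The count rested on single mice. Without KO mouse 8, 50 of the 82 receptors (61%) were higher at the cutoff, against 2.74% of all probe sets. Without WT mouse 2 there were 17 (20.7%), against 0.775%. Leaving out KO mouse 6, 7 or 9 left 0, 1 and 0 receptors, against 0.198%, 0.203% and 0.18% of all probe sets. Leaving out WT mouse 1, 3 or 5 left 5, 0 and 2, against 0.203%, 0.131% and 0.212%. With array quality weights the count was 32 (39%), against 1.83%. The calls over the whole array thus moved too, from 0.428% higher with all mice. The shares of the 82 are in part built into their choice, since 27 of them entered through their KO values.

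Bright receptors outside the cutoff had similar levels and a wider overlap. *Olfr1256* read 13.45, 13.25, 10.39 and 13.39 log2 in KO mice against 9.02, 12.45, 9.90 and 10.99 log2 in WT mice (log2 fold change 2.03, standard error 0.83). *Olfr1123* read 12.91, 13.23, 10.15 and 12.73 log2 in KO mice against 9.22, 11.55, 9.51 and 10.81 log2 in WT mice (log2 fold change 1.98, standard error 0.72). *Olfr731* read 12.85, 12.90, 9.92 and 13.15 log2 in KO mice against 9.89, 12.20, 9.73 and 9.88 log2 in WT mice (log2 fold change 1.78, standard error 0.77). In each of them WT mouse 2 lay above KO mouse 8. *Olfr498* read 11.05, 10.64, 7.44 and 10.81 log2 in KO mice against 8.08, 8.76, 6.98 and 7.19 log2 in WT mice, the largest difference that missed the cutoff (log2 fold change 2.23, standard error 0.75). *Olfr298*, the second brightest receptor, read 12.75, 12.82, 10.22 and 12.82 log2 in KO mice against 12.96, 11.29, 10.57 and 10.56 log2 in WT mice (log2 fold change 0.81, standard error 0.69). Its highest value was that of WT mouse 1.

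The remaining receptors among the 10 brightest were *Olfr1381*, *Olfr133*, *Olfr898* and *Olfr1170*. *Olfr1381* read 12.77, 13.56, 9.43 and 12.17 log2 in KO mice against 9.25, 11.80, 10.35 and 11.45 log2 in WT mice. *Olfr898* read 11.91, 12.15, 9.31 and 12.30 log2 in KO mice against 10.09, 10.95, 10.24 and 10.64 log2 in WT mice. KO mouse 8 lay below every WT mouse for *Olfr898* and below all but WT mouse 1 for *Olfr1381*. *Olfr133* averaged 11.62 ± 1.41 log2 in KO mice and 10.50 ± 0.82 log2 in WT mice, and *Olfr1170* averaged 11.33 ± 1.57 log2 in KO mice and 10.35 ± 1.09 log2 in WT mice (SD, n = 4 each).

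The smallest differences were those of *Olfr1272*, *Olfr1412*, *Olfr1371*, *Olfr508*, *Olfr782* and *Olfr1385*, with log2 fold changes of 0.05, 0.14, 0.24, 0.41, 0.43 and 0.44. *Olfr1272* read 9.55, 8.31, 6.52 and 9.32 log2 in KO mice against 7.65, 9.52, 8.06 and 8.26 log2 in WT mice. *Olfr1371* read 10.43, 10.99, 8.15 and 10.19 log2 in KO mice against 8.91, 10.93, 8.91 and 10.04 log2 in WT mice. WT mouse 2 was the second highest mouse in both, and KO mouse 8 was the lowest. The 48 receptors not named by the rule for single genes had means from 8.12 to 10.35 log2 and log2 fold changes from 0.47 to 1.99.

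Receptor signal was set against the control contrast of each array, the positive control median less the negative control median, which grows as an array separates the controls. It was 2.99, 2.37, 4.30 and 2.85 log2 in KO mice 6, 7, 8 and 9, against 4.28, 3.17, 4.22 and 3.61 log2 in WT mice 1, 2, 3 and 5. It averaged 3.13 ± 0.83 log2 in KO mice and 3.82 ± 0.53 log2 in WT mice (SD, n = 4 each), with a 2-sided exact permutation p of 0.2 over the 70 assignments of mice, which cannot give a p below 0.0286. KO mice 6, 7 and 9 had the 3 lowest values and KO mouse 8 the highest. The mean of the bright receptors followed this order in reverse, with Pearson's r = −0.963 and Spearman's rho = −0.929 over the 8 mice. Without KO mice 7 and 8, which lay farthest from the median contrast, r was −0.96. No value is given within a genotype, since each held only 4 mice. The points share their arrays and their normalization with the controls.

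All 82 receptors had a correlation with the control contrast below 0, from −0.981 to −0.361 with a median of −0.87, while 52% of all probe sets lay below 0. The 27 receptors that entered through their KO values were chosen high in KO mice, whose mean contrast was the lower. For them a correlation below 0 was favoured by the choice, which also bears on the mean of the bright receptors. The median correlation was −0.654 in the other olfactory receptors, −0.0507 over all probe sets tested and 0.509 in other named probe sets of the same brightness. Bright vomeronasal receptors had a median of −0.862, with 100% below 0. The negative control probe sets with a mean of 8 or more, which are among the controls that make up the contrast, had a median of −0.69, with 87% below 0, and their mean had r = −0.977 and rho = −0.929 with it. After adjustment over all probe sets, 9 of the 82 receptors (11%) passed by exact permutation of the 8 mice over 40320 orders, against 0.973% of all probe sets in that direction and 0.477% in the other. By Spearman's rho 0 of the 82 passed, against 0.0946% of all probe sets. The 9 were *Olfr1381*, *Olfr1386*, *Olfr1393*, *Olfr1102*, *Olfr1373*, *Olfr1186*, *Olfr1302*, *Olfr1380* and *Olfr10*.

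*Olfr1102* had r = −0.981 (exact permutation, adjusted p = 0.0416). It read 10.49, 11.22, 8.36 and 10.85 log2 in KO mice against 7.83, 10.18, 8.65 and 9.17 log2 in WT mice. *Olfr1386* also had r = −0.981 and read 10.89, 12.15, 9.01 and 11.68 log2 in KO mice against 8.97, 11.30, 9.45 and 10.08 log2 in WT mice. KO mouse 7, with the lowest contrast, was the highest mouse for both, as it was for *Olfr1373* (r = −0.972) and *Olfr1302* (r = −0.977). At the other end, *Olfr167* had r = −0.361 and read 9.50, 9.71, 7.65 and 9.95 log2 in KO mice against 10.66, 8.14, 7.39 and 6.81 log2 in WT mice. *Olfr1087* had r = −0.417 and read 8.05, 8.64, 7.46 and 10.03 log2 in KO mice against 8.98, 7.42, 7.17 and 7.45 log2 in WT mice. WT mouse 1 was high for both, against its contrast.

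The hybridization controls, bacterial and phage transcripts added to every sample just before the arrays, were looked at after the values had been seen. Their mean was 11.71, 11.71, 11.32 and 11.93 log2 in KO mice 6, 7, 8 and 9 against 11.08, 11.62, 10.85 and 11.23 log2 in WT mice 1, 2, 3 and 5, a difference of 0.47 (2-sided exact permutation p = 0.0571). The mean of the bright receptors moved with it over the 8 mice (Pearson's r = 0.919, Spearman's rho = 0.905). With the mean of the poly-A controls, added to the RNA before labelling, r was 0.0206 and rho 0.0714. The part of these array measures in the difference between genotypes was not tested beyond the fits that follow.

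**Figure D4:**
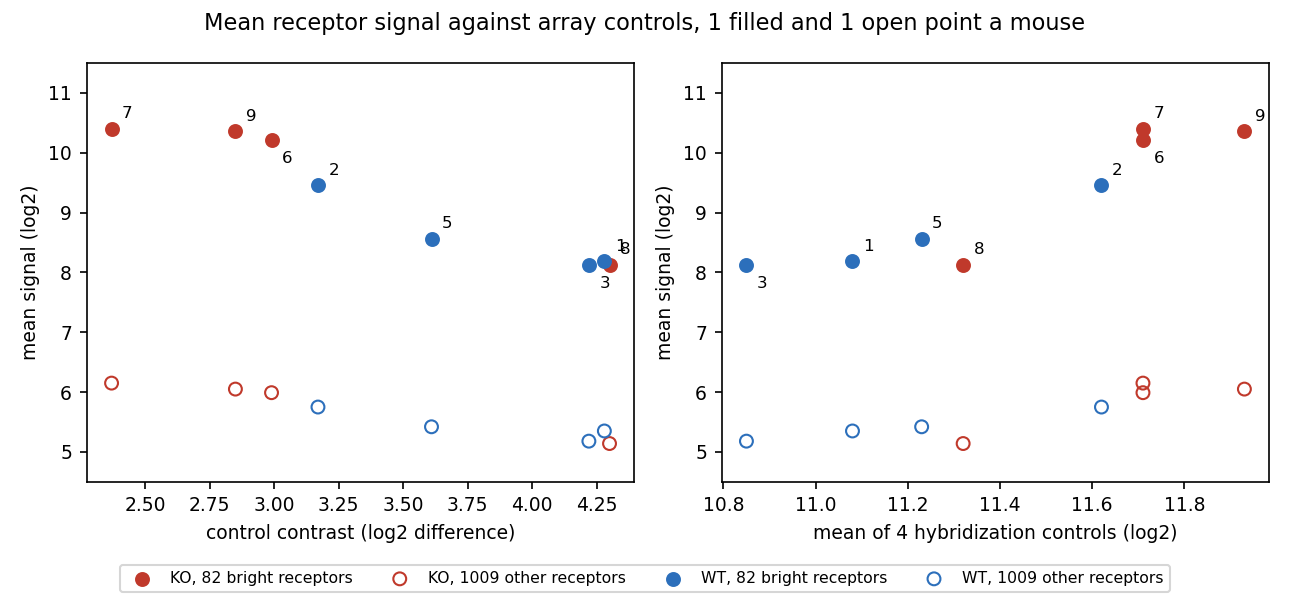
Mean signal (log2) of the 82 bright receptors (filled) and the 1009 other olfactory receptors (open) against the control contrast (left) and the mean of 4 hybridization controls (right), with KO mice in red, WT mice in blue and mouse numbers at the filled points. The bright receptors averaged 10.40 log2 in KO mouse 7, at the lowest contrast, and 8.13 log2 in KO mouse 8, at the highest.

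With the control contrast as a covariate in the fit, the median difference between KO and WT mice was 0.27 in place of 1.12, with 58 receptors above 0 and 24 not, and 0 at the cutoff. With the mean of the hybridization controls as a covariate it was −0.17, with 32 above 0 and 50 not, and 0 at the cutoff. Calls over the whole array fell too. Of all probe sets 0.428% were higher at the cutoff without covariates, 0.14% with the control contrast and 0.0721% with the hybridization controls. The largest differences kept their direction in the fit with the control contrast, with *Olfr773* at 1.51, *Olfr772* at 1.37 and *Olfr1095* at 1.34 on the log2 scale. Among those that changed sign were *Olfr1371* (−0.86), *Olfr1272* (−0.85) and *Olfr1385* (−0.83).

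**Figure D5:**
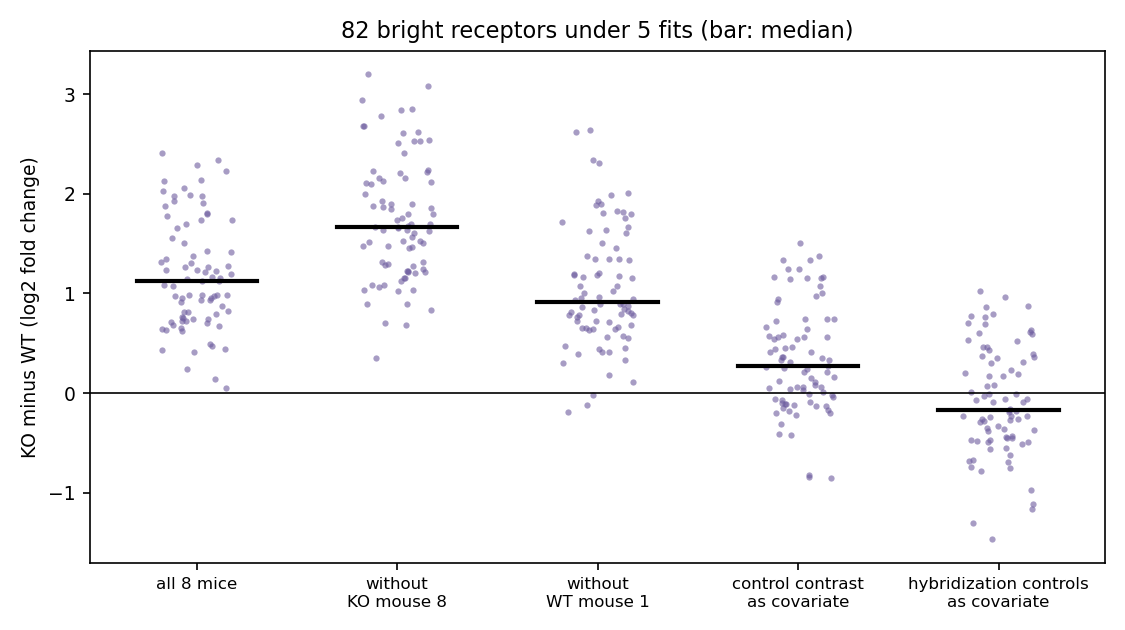
KO minus WT difference (log2 fold change) of the 82 bright receptors in 5 fits, 1 point a receptor, with the median as a bar. The medians are 1.12 with all mice, 1.67 without KO mouse 8, 0.91 without WT mouse 1, 0.27 with the control contrast and −0.17 with the hybridization controls as a covariate.

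The bright receptors varied together over the mice. Over the 3321 pairs of them the median correlation across the 8 mice was 0.794, against 0.416 over pairs of the other olfactory receptors. Their mean followed the mean of the other olfactory receptors with Pearson's r = 0.989. That second mean was 5.99, 6.15, 5.14 and 6.05 log2 in KO mice against 5.35, 5.75, 5.18 and 5.42 log2 in WT mice. KO mouse 8 was the lowest of all mice there too.

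The genes of olfactory signalling were counted beside the receptors. Of 31 measured genes, 0 were at the cutoff in either direction, a count near the share of all probe sets (0.428% higher and 0.297% lower). A difference above 0 was found in 12 and below in 19, and the median was −0.18. The list is mixed, since 14 genes, among them *Gnb1*, *Ebf1* and *Kdm1a*, exceeded the negative control median on all 8 arrays and 9 on none. *Adcy3* read 7.66, 7.21, 8.18 and 6.29 log2 in KO mice against 7.44, 8.01, 8.55 and 7.67 log2 in WT mice. *Ano2* read 5.65, 6.15, 4.09 and 5.30 log2 in KO mice against 4.93 to 5.50 log2 in WT mice. In bulk tissue, fewer cells of a type and less RNA per cell cannot be told apart.

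Bright receptors were spread over 12 of the 17 chromosomes that hold olfactory receptors in the GRCm38.p6 annotation. Chromosome 2 held 28 of them among 284 receptors, chromosome 9 held 11, chromosome 11 held 10 of 80 and chromosome 10 held 8. Chromosome 7 held 6 of its 232 receptors (2.59%). None lay among the 117 receptors within 1.5 Mb of the beta-globin genes on that chromosome, where class I receptors, the family branch shared with fish, are found, and the highest mean there was 7.31 log2. That region was chosen after the values were seen. Of the 82 receptors, 30 (36.6%) had another bright receptor as the next olfactory receptor gene, while 11.9% of the other receptors had a bright one next to them. These 30 formed 12 runs, of which the longest held *Olfr1166*, *Olfr1167*, *Olfr1168*, *Olfr1170* and *Olfr1173*. None of the 82 overlapped another annotated gene. Their gene models had a median length of 949.5 bases, against 951 in the other receptors, and 79.3% of the lengths were multiples of 3, against 78.7%, so that most models hold the coding length alone.

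Sequence around the start codon is shown for 3 pairs of bright receptors on the same chromosome, because related copies can share array signal. The pairs were chosen after their values were seen. The sequences are from RefSeq (GRCm38.p6), begin 30 bases before an ATG, run 5′ to 3′ on the strand of the gene, and carry in capitals the longest run that both members of a pair share.
Olfr772: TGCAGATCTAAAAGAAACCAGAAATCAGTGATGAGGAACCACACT
Olfr773: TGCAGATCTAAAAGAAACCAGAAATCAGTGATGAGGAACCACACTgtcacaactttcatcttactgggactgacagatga
Olfr1166: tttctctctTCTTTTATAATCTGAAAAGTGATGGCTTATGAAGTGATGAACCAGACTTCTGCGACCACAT
Olfr1170: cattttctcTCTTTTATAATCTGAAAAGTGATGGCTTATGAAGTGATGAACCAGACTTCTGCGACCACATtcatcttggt
Olfr1393: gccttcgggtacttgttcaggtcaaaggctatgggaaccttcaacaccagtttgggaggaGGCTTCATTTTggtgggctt
Olfr1381: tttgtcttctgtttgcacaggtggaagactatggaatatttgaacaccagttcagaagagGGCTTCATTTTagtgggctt

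*Olfr772* (chr10:129175005-129175049, minus strand) and *Olfr773* (chr10:129187370-129187449, minus strand) matched at 45 of 45 aligned bases, and their signal correlated over the 8 mice with r = 0.989. *Olfr1166* (chr2:88124944-88125013, minus strand) and *Olfr1170* (chr2:88224981-88225060, minus strand) matched at 63 of 70 bases, with r = 0.88. *Olfr1393* (chr11:49280120-49280199, plus strand) and *Olfr1381* (chr11:49551719-49551798, plus strand) matched at 55 of 80 bases with no shared run over 11 bases, and r = 0.959. These bases cover only the sequence around the start codon, and the median r over all 3321 pairs of bright receptors was 0.794. Whether probes are shared was not tested, since probe sequences were not used here.

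Promoter windows, 250 bases before to 50 after the start of the gene model, were at hand for 68 of the 82 receptors. For 51 of them (75%) the model began at its start codon, so that the window shows sequence next to the coding start and not a mapped transcription start. Median GC content was 33%, against 35.3% in the windows of the other olfactory receptors. The motif CCCNNGGG, bound by EBF factors, was found on either strand in 1.47% of the windows of bright receptors, 3.03% of those of other olfactory receptors and 13.7% of all windows. TAATTA, the core bound by homeodomain factors such as LHX2, was found in 14.7%, 18.8% and 5.29% of the same sets, and TATAAA in 47.1%, 40.6% and 13.6%.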

How the data were processed

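AF RNA of 8 mice was measured on Mouse Clariom S arrays, 1 array a mouse. The authors processed the arrays with the Transcriptome Analysis Console, and the values they deposited are sst-RMA signal on the log2 scale for 28846 probe sets. All sample columns were used. The genome build of the array annotation is not given in the sources used here. The 6640 control probe sets were kept out of the comparison, which left 22206 probe sets. Array medians differed by at most 0.18 log2, and arrays correlated with each other at 0.893 to 0.969. Depth has no meaning for arrays, and the number of arrays limits the precision.

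Olfactory receptors were taken by symbol, and those with a mean of at least 8 log2 were kept. The difference of KO from WT mice was estimated without covariates by lmFit and eBayes of limma 3.58.1 (R 4.3.3), and p-values were adjusted by Benjamini-Hochberg over all probe sets. For the arrays, the methods give a cutoff but no test, and their general statistics list the t-test among tests for 2 groups. Their filter on detection above background was not repeated, since no detection p-values were used here. Single values per mouse were tested by exact permutation. The limma fit was tested on simulated data in which probe sets varied independently. Variation that many probe sets share on an array was thus not covered by that test. The members and gene lists were chosen with earlier results of these data known. Single receptors were named by rule, which took those at the cutoff, the 10 brightest, the 6 largest and 6 smallest differences, the 4 highest and 4 lowest correlations with the control contrast, and 3 on either side of the threshold. Alternatives were other normalizations, variance models, thresholds, a filter on dim probe sets, an unpaired t-test, covariates and leaving out each mouse. The fit with hybridization controls was chosen after seeing the data. All 1091 receptors were found by gene identifier in the RefSeq annotation of GRCm38.p6, which gave neighbours and sequences. Markers of other cell types in the dissected tissue were measured too. The marker lists of neutrophils (KO 17.51 to 18.99, WT 18.63 to 19.12 log2), erythroid cells (KO 13.94 to 15.14, WT 12.41 to 14.95 log2), B cells (KO 8.33 to 10.59, WT 7.76 to 10.28 log2), macrophages (KO 8.41 to 10.19, WT 8.42 to 9.40 log2), endothelium (KO 8.24 to 9.65, WT 7.96 to 9.65 log2), adipocytes (KO 9.60 to 10.13, WT 9.02 to 10.08 log2), skeletal muscle (KO 5.39 to 6.05, WT 5.73 to 7.51 log2), Schwann cells (KO 6.09 to 6.62, WT 6.66 to 8.49 log2) and nucleus pulposus (KO 8.19 to 11.84, WT 7.07 to 11.50 log2) are given as the range of their mean over mice.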

Additional observations from a re-analysis of the deposited data

Results flagged for a closer look

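In 86 groups of 4 mice, 16 single values lay far from the other 3 by Dixon's criterion, which chance alone meets in about 1 group in 20. The groups share the same arrays, so that the flags are not independent. KO mouse 8 was the low value in 13 of them. It read 11.05 log2 for *Olfr772*, 9.76 for *Olfr773*, 9.31 for *Olfr1239*, 8.05 for *Olfr1314*, 10.22 for *Olfr298*, 10.39 for *Olfr1256*, 9.92 for *Olfr731*, 10.15 for *Olfr1123*, 9.31 for *Olfr898*, 7.44 for *Olfr498* and 6.71 for *Olfr508*. It also had the low mean of the bright receptors (8.13 log2, against 10.22 to 10.40 in the other KO mice) and of the other olfactory receptors (5.14 log2, against 5.99 to 6.15). KO mouse 8 had the highest control contrast of the 8 arrays, 4.30 log2. Among WT mice, mouse 2 was high for *Olfr731* (12.20 log2, against 9.73 to 9.89 in the others), mouse 1 was high for *Olfr1087* (8.98 log2, against 7.17 to 7.45), and mouse 3 was low for *Olfr1154* (6.84 log2, against 7.71 to 7.88).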

How the results depend on the processing

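The median difference of the bright receptors stayed above 0 in every alternative but 1, from 0.27 with the control contrast as a covariate to 1.67 without KO mouse 8, and was −0.17 with the hybridization controls as a covariate, an alternative chosen after seeing the data. Leaving out 1 mouse gave 0.89 to 1.67. The count at the cutoff was less stable. The main count was 11. It was 0 with either covariate and by an unpaired t-test, and 32 with array quality weights. Nearer the main count were 8 after quantile normalization, 11 after median centring and 11 at a fold change of 1.5. So were 14 with a filter on dim probe sets and 16 with a trend and robust priors in the variance model. At an unadjusted p of 0.05 without a fold change minimum the count was 27. The count was 7 of the 36 receptors with a mean of at least 9, 16 of the 197 with a mean of at least 7, and 0 to 50 when 1 mouse was left out. Calls over all probe sets moved as well, with 0.428% higher at the cutoff in the main fit. That share was 0.131% to 2.74% when 1 mouse was left out. It was 0.14% with the control contrast and 0.0721% with the hybridization controls as a covariate. By the unpaired t-test it was 0.203%, and with array quality weights 1.83%. In the other normalizations, variance model and filter it lay between 0.386% and 0.572%. Receptors whose correlation with the control contrast passed numbered 9, against 3 after quantile normalization, 0 with minus the negative control median in place of the contrast, and 0 in every fit without 1 mouse, where fewer arrays leave fewer orders. The share of all probe sets was 0.973% in the main setting and was not counted in these alternatives. A fall among the receptors can therefore not be told from a fall over the whole array. The correlation of the bright receptors' mean stayed between −0.976 and −0.955 when 1 mouse was left out.

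For the 37 named receptors, 16 alternatives gave 592 values, of which 45 had the opposite sign. With the control contrast as a covariate these were *Olfr1381* (−0.17), *Olfr898* (−0.01), *Olfr1170* (−0.20), *Olfr1272* (−0.85), *Olfr1412* (−0.41), *Olfr1371* (−0.86), *Olfr508* (−0.42), *Olfr782* (−0.15), *Olfr1385* (−0.83), *Olfr1386* (−0.20), *Olfr1373* (−0.13), *Olfr1282* (−0.53) and *Olfr146* (−0.53). With the hybridization controls they were *Olfr298* (−0.07), *Olfr1256* (−0.09), *Olfr1381* (−0.44), *Olfr731* (−0.23), *Olfr133* (−0.47), *Olfr898* (−0.33), *Olfr1170* (−0.75), *Olfr1272* (−1.47), *Olfr1412* (−0.43), *Olfr1371* (−1.31), *Olfr508* (−0.78), *Olfr782* (−0.55), *Olfr1385* (−1.11), *Olfr1386* (−0.69), *Olfr1102* (−0.26), *Olfr1302* (−0.29), *Olfr1373* (−0.37), *Olfr44* (−0.06), *Olfr1282* (−1.05) and *Olfr146* (−0.70). Without 1 mouse, *Olfr1272* ran from −0.33 to 0.68, *Olfr1412* from −0.24 to 0.40, *Olfr1371* from −0.11 to 0.84, *Olfr1385* from −0.03 to 1.28, *Olfr1282* from −0.07 to 0.77 and *Olfr146* from −0.19 to 0.61. The cause of these changes was not tested. Among the rest, 97 values kept their sign but missed the cutoff that the main value met, 21 met a cutoff that the main value missed, and 429 did neither.

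No paired analysis was possible because KO and WT mice share no replicate numbers. Slide and scan could not be used as a block, since neither labels nor values used here give them. With 4 mice a genotype and a contrast that differs between mice, genotype and array measures overlap, and none of the receptors passed adjustment over all probe sets.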
